A study of Arabidopsis thaliana with 4 samples.

Results

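Heat shock proteins are molecular chaperones, which hold or refold proteins that have lost their shape. The chaperone genes described here are 37 nuclear loci of Arabidopsis thaliana, taken from a list of loci by protein class: 15 small heat shock proteins, 9 HSP70 proteins, 3 BiP proteins, 7 HSP90 proteins and 3 ClpB proteins, of which HSP101 is the cytosolic one. All 37 were found among the 34261 genes on the array, where a transcript that matched no locus counted as its own gene. By the compartment in which the protein works, 19 are cytosolic, 6 mitochondrial, 5 plastidic, 5 of the endoplasmic reticulum (ER) and 1 peroxisomal, and the organelle of HSP26.5 was treated as not settled. Members were assigned to classes and compartments by what is known of their proteins and not by any measured value.

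Transcripts were measured in whole seedlings of the sahy9-1 mutant and of Col-0, the wild type, with 2 one-colour arrays per genotype. The sahy9-1 line carries a T-DNA insertion in APUM23, which encodes a nucleolar RNA-binding protein needed for processing of ribosomal RNA precursors, and this single insertion line was the only mutant on the arrays. Seedlings of both genotypes had grown for 10 days and were then kept for 1 day on 150 mM NaCl, so the comparison is between genotypes under salt, and the response to salt itself was not measured here. The RNA came from whole seedlings, so fewer cells of a type and less RNA per cell cannot be told apart.

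Small heat shock proteins bind unfolding proteins without using ATP and keep them from aggregating. HSP70 proteins, with BiP as their ER form, bind and release clients in a cycle driven by ATP, HSP90 proteins fold signalling proteins such as receptors and kinases, and ClpB proteins pull aggregates apart. In plants most small heat shock protein genes and a few HSP70, HSP90 and ClpB genes are nearly silent until heat shock factors switch them on under heat and several other stresses, while the cognate HSP70 (HSC70), BiP and most HSP90 genes are expressed in every growing cell.

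A level below is the log2 intensity of a gene's probe relative to the 75th percentile of its array, so 0 is that percentile. A difference is the sahy9-1 mean minus the Col-0 mean on this log2 scale, and levels are not compared between genes because each has its own probe. A gene was called when its adjusted p in the limma fit over all tested genes was 0.05 or less. On the 4 arrays 74.6% to 76.3% of gene spots were well above background and none was saturated. The levels of all tested genes correlated at 0.996 between the sahy9-1 arrays, at 0.995 between the Col-0 arrays and at 0.947 to 0.959 between genotypes. APUM23 (AT1G72320) itself was at -3.34 and -3.58 in sahy9-1, against -0.61 and -0.41 in Col-0, which was 7.71-fold lower in sahy9-1 (adjusted p = 0.000979, limma). Both genotypes were at background for the second APUM23 probe, which gives no fold change, and the mean over both probes was -1.92. Where the probes lie relative to the insertion is not known here. Of 6 shoot marker genes 3 (GL1, LOX2 and LHCB2.1) were called lower in sahy9-1 and none higher, beside 24.0% of all tested genes called lower. The summed linear level of all 6 was 198 and 209 times the percentile in sahy9-1 against 241 and 251 in Col-0. Most of that sum came from RBCS1A and LHCB1.3, which were not called (adjusted p = 0.140 and 0.0924, limma). Among 7 root marker genes 2 (RCI3 and WOX5), or 28.6%, were called lower and none higher. The summed levels of all 7 were 3.75 and 3.81 in sahy9-1 and 5.13 and 4.17 in Col-0. All 13 markers were well above background on every array. The part of tissue make-up in the differences below was not tested.

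Of the 37 chaperone genes 36 passed the signal filter, an intensity of 100 in both replicates of sahy9-1 or of Col-0, and were tested. HSP23.6 passed through sahy9-1 alone, and BIP3 did not pass. In sahy9-1 13 were lower, 8 were higher and 15 were not called. The 13 lower genes are 36.1% of those tested, while 24.0% of all 21732 tested genes were called lower. The 8 higher genes are 22.2%, which is near the 25.4% of all tested genes called higher. Among calls with a fold change of at least 3, 7 of 36 members (19.4%) were lower, where 1.59% of all tested genes were. In limma 0 members were higher by at least 3-fold, also at an unadjusted p, where 1.66% of all tested genes were called so. All 7 were small heat shock proteins. The arrays of the genotypes did not overlap for 33 of the 37 members (89.2%), and they did not overlap for 80.3% of all tested genes. When the signal filter was dropped, so that all 37 members entered the test, 10 were called lower and 3 higher, beside 8.93% and 10.3% of all 34261 genes.

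**Figure D1:**
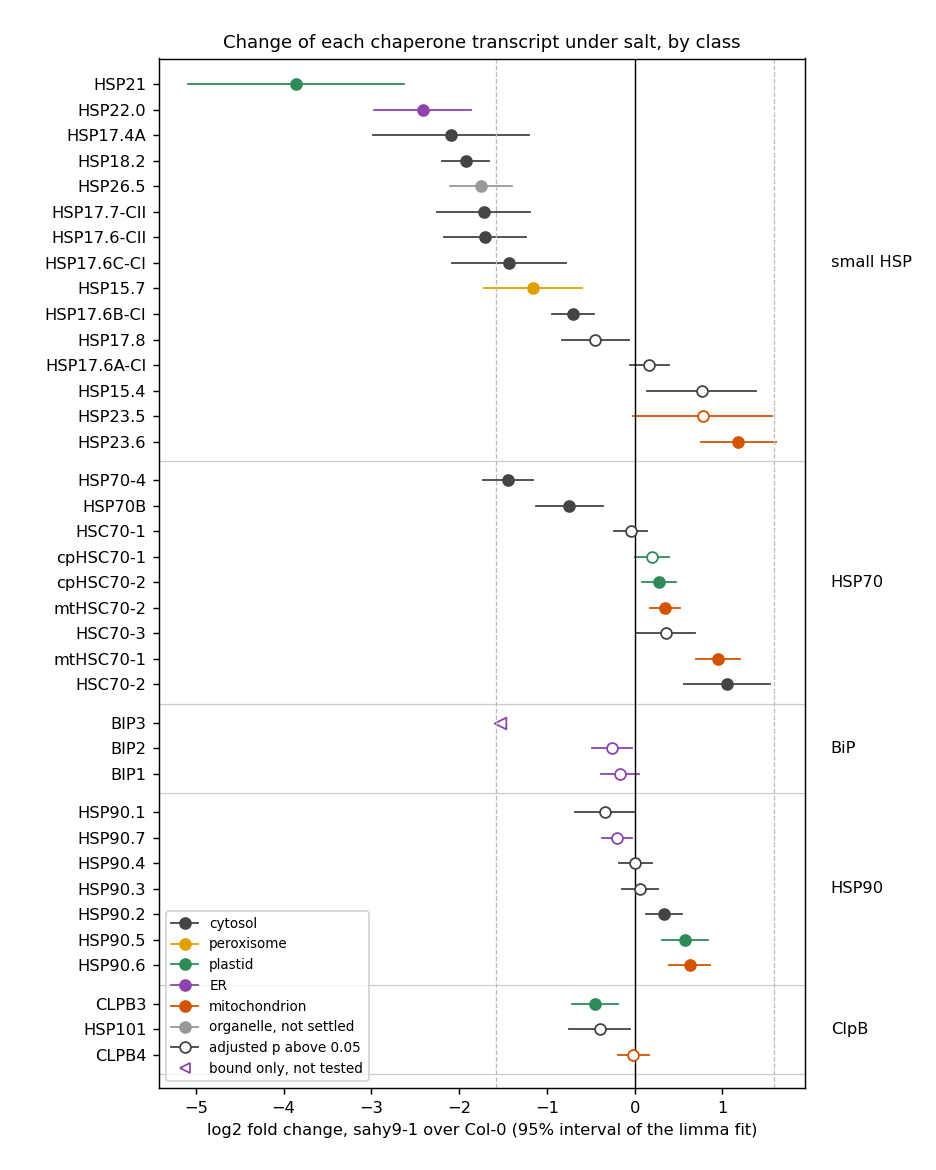
Log2 fold change of sahy9-1 over Col-0 (x axis) for each chaperone gene (y axis), grouped by class and coloured by compartment, with the 95% interval of the limma fit as bars and dashed lines at 3-fold. Filled points have an adjusted p of 0.05 or less. BIP3 is shown at its approximate bound of 2.89-fold. Of the 15 small heat shock proteins, 10 lie left of 0 as filled points, and the filled points of the HSP90 class lie right of it.

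The small heat shock proteins carried most of the lower calls: 10 of the 15 were lower in sahy9-1, 1 was higher and 4 were not called. The median difference of the class was -1.43, beside -0.0041 over all genes tested. The members outside this class were called lower in 3 of 21 cases (14.3%) and higher in 7 of 21 (33.3%). Of the small heat shock proteins 66.7% were lower. Over all tested genes the shares were 24.0% lower and 25.4% higher. Differences within the class ran between -3.86 and 1.18.

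HSP21 (AT4G27670), the small heat shock protein of the plastid, showed the most negative difference of all members. Its level was -3.25 and -3.08 on the sahy9-1 arrays, against 1.38 and 0.0053 on the Col-0 arrays. Both sahy9-1 arrays were far below both Col-0 arrays, and the Col-0 arrays lay well apart from each other (SD 0.97, n = 2). The difference was -3.86 ± 0.46 (SE), or 14.5-fold lower (adjusted p = 0.0052). The transcript was 9.01-fold lower without Col-0 replicate 1 and 23.4-fold lower without Col-0 replicate 2. Each of these fits leaves 1 Col-0 array and so cannot measure the spread between the Col-0 arrays.

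HSP22.0 (AT4G10250), the ER member of the family, had levels of -1.76 and -1.20 in sahy9-1 and of 1.04 and 0.83 in Col-0. The gap between the genotypes was wider than the gap within either of them, and the transcript was 5.34-fold lower in sahy9-1 (adjusted p = 0.0032). HSP26.5 (AT1G52560), whose organelle was treated as not settled, was at -1.86 and -1.52 in sahy9-1, against 0.13 and 0.0073 in Col-0 (3.37-fold lower, adjusted p = 0.0027). The genotypes did not overlap for either gene, and they did not overlap for 80.3% of all tested genes. HSP15.7 (AT5G37670), the peroxisomal member, showed -1.40 and -1.64 in sahy9-1 and -0.09 and -0.65 in Col-0, a difference of -1.16 ± 0.21 (SE, adjusted p = 0.0129). The call for HSP15.7 was lost without sahy9-1 replicate 2 (adjusted p = 0.0624) and just lost with another background correction, normexp (adjusted p = 0.0504).

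The cytosolic small heat shock proteins of Arabidopsis fall mainly into class I and class II, which form separate oligomers. In class I, HSP18.2 (AT5G59720) was at -0.16 and -0.11 in sahy9-1, against 1.91 and 1.67 in Col-0. It had the smallest adjusted p of all 36 tested members, 0.0015, with a 3.80-fold lower level in sahy9-1. HSP17.4A (AT3G46230) was at -1.81 and -1.55 in sahy9-1, against 0.90 and -0.06 in Col-0, a 4.28-fold lower level (adjusted p = 0.0094). Its Col-0 arrays lay far apart, and both were above both sahy9-1 arrays. HSP17.6C-CI (AT1G53540) gave -0.96 and -0.38 in sahy9-1 and 0.97 and 0.55 in Col-0, 2.70-fold lower in sahy9-1 (adjusted p = 0.0113). HSP17.6B-CI (AT2G29500) was the mildest of the class I genes called, with 0.72 and 0.81 in sahy9-1 and 1.56 and 1.38 in Col-0 (difference -0.70 ± 0.091, adjusted p = 0.0060). With normexp the adjusted p was 0.0526 for HSP17.4A, 0.0655 for HSP17.6C-CI and 0.0502 for HSP17.6B-CI, with differences of -2.02, -1.38 and -0.67.

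The remaining class I genes were not called. HSP17.8 (AT1G07400) was at -1.06 and -0.67 in sahy9-1, against -0.40 and -0.44 in Col-0, and its difference of -0.45 had a 95% interval of -0.83 to -0.069 (adjusted p = 0.0573). HSP17.6A-CI (AT1G59860) was at -2.91 and -2.81 in sahy9-1 and at -2.96 and -3.10 in Col-0, with an interval of -0.05 to 0.39 around a difference of 0.17 (adjusted p = 0.156). A decrease of the size seen for HSP18.2 lies outside both intervals.

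Both class II genes were lower in sahy9-1. HSP17.6-CII (AT5G12020) was at -4.10 and -3.70 in sahy9-1, against -2.03 and -2.35 in Col-0, and was 3.27-fold lower (adjusted p = 0.0042). HSP17.7-CII (AT5G12030), which the RefSeq table names HSP17.6A, was at -3.47 and -3.17 in sahy9-1, against -1.35 and -1.85 in Col-0, and was 3.30-fold lower (adjusted p = 0.0049). These genes lie side by side on chromosome 5 in the TAIR10.1 annotation, and their differences of -1.71 ± 0.18 and -1.72 ± 0.20 (SE) were closer to each other than either error. Whether either probe also binds the neighbour's transcript was not tested. Both these genes and HSP26.5 passed the 3-fold limit narrowly, and 4 members were at 3-fold or more without sahy9-1 replicate 1, against 5 without Col-0 replicate 1 and 8 without either of the other arrays.

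**Figure D2:**
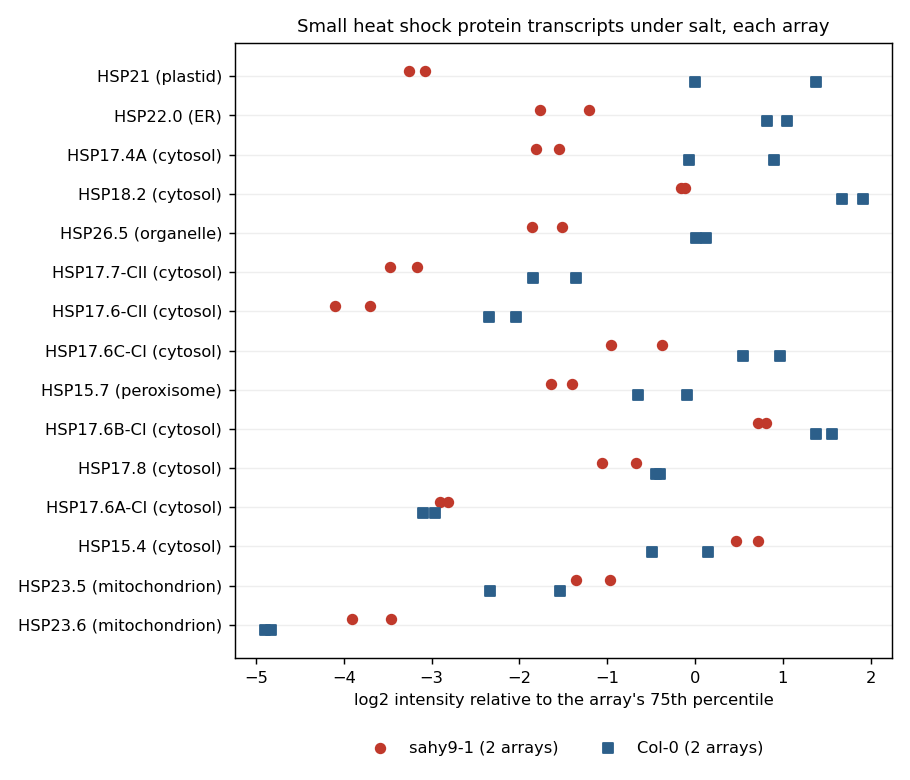
Level of each of the 15 small heat shock protein transcripts (y axis, compartment in brackets) on each array, as log2 intensity relative to the array's 75th percentile (x axis), with sahy9-1 as circles and Col-0 as squares. Genes are ordered by their difference; the circles lie left of the squares for 11 genes, most widely for HSP21, and right of them for HSP17.6A-CI, HSP15.4, HSP23.5 and HSP23.6.

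The mitochondrial small heat shock proteins stood on the other side of 0. HSP23.6 (AT4G25200) was at -3.91 and -3.47 in sahy9-1, against -4.90 and -4.84 in Col-0, a difference of 1.18 ± 0.16 (SE) or 2.27-fold higher in sahy9-1 (adjusted p = 0.0066). It is a dim probe: its Col-0 intensities of 94.8 and 95.1 were under the filter of 100, so it entered the test through the sahy9-1 arrays, and with normexp the difference was 0.09 (adjusted p = 0.908). HSP23.5 (AT5G51440) was at -1.35 and -0.97 in sahy9-1 and at -2.34 and -1.54 in Col-0, with an interval of -0.015 to 1.57 around a difference of 0.78 (adjusted p = 0.0910). HSP15.4 (AT4G21870), a divergent member placed in the cytosol, was at 0.46 and 0.72 in sahy9-1 and at -0.49 and 0.15 in Col-0, with a difference of 0.76 and an adjusted p of 0.0520. Both sahy9-1 arrays of these 3 genes were above both Col-0 arrays, and only HSP23.6 was called. The arrays of the genotypes did not overlap, in either direction, for 80.3% of all tested genes.

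Of the 9 HSP70 genes 2 were lower in sahy9-1, 4 were higher and 3 were not called, beside 24.0% lower and 25.4% higher calls over all tested genes. The median difference of the class was 0.28. The lower genes were the cytosolic members known for strong induction by heat. HSP70-4 (AT3G12580) was at 2.17 and 2.25 in sahy9-1, against 3.78 and 3.53 in Col-0, which made it 2.72-fold lower (adjusted p = 0.0026). HSP70B (AT1G16030) was at -2.96 and -2.85 in sahy9-1, against -1.97 and -2.35 in Col-0, 1.67-fold lower (adjusted p = 0.0155). The call for HSP70B was lost when either sahy9-1 array was left out (adjusted p = 0.0747 and 0.0589), while HSP70-4 kept its call whichever of the 4 arrays was left out.

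The constitutive cytosolic HSC70 genes gave other values. HSC70-1 (AT5G02500), the most studied of them, was at 4.74 and 4.84 in sahy9-1 and at 4.81 and 4.86 in Col-0. The arrays of the genotypes overlapped, and the 95% interval of the difference was -0.23 to 0.14 (adjusted p = 0.637). Its 8 probes gave differences between -0.04 and 0.24 and none was called. HSC70-2 (AT5G02490), the gene next to HSC70-1 on chromosome 5, was at 1.94 and 1.93 in sahy9-1, against 0.62 and 1.15 in Col-0. It was 2.07-fold higher in sahy9-1 (adjusted p = 0.0120), and that call was lost when either sahy9-1 array was left out (adjusted p = 0.0547 and 0.0559). HSC70-3 (AT3G09440) was at 1.72 and 1.71 in sahy9-1 and at 1.19 and 1.52 in Col-0, with a difference of 0.36 that was not called (adjusted p = 0.0693).

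HSP70 proteins of the organelles help to import precursor proteins across the envelope and fold them inside. mtHSC70-1 (AT4G37910) of the mitochondrion was at 3.27 on both sahy9-1 arrays, against 2.20 and 2.43 in Col-0. It was 1.93-fold higher in sahy9-1 (adjusted p = 0.0040). Its relative mtHSC70-2 (AT5G09590) was at 2.27 and 2.25 in sahy9-1 and at 1.89 and 1.94 in Col-0, 1.27-fold higher (adjusted p = 0.0136). The plastid genes differed less. cpHSC70-2 (AT5G49910) was at 1.11 and 1.08 in sahy9-1, against 0.75 and 0.88 in Col-0, 1.21-fold higher (adjusted p = 0.0354). cpHSC70-1 (AT4G24280) was at 3.40 and 3.48 in sahy9-1, against 3.19 and 3.29 in Col-0, and was not called (difference 0.20, adjusted p = 0.0838). The calls of mtHSC70-2 and cpHSC70-2 were lost with normexp (adjusted p = 0.0590 and 0.0811) and without single arrays.

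BiP binds nascent proteins in the ER lumen and, in yeast and animals, also holds sensors of the unfolded protein response inactive. BIP1 (AT5G28540) was at 2.32 and 2.35 in sahy9-1 and at 2.42 and 2.59 in Col-0, with a difference of -0.17 (adjusted p = 0.154). BIP2 (AT5G42020) was at 2.62 and 2.72 in sahy9-1 and at 2.85 and 3.01 in Col-0, with a difference of -0.26 (adjusted p = 0.0610). The sahy9-1 arrays were below the Col-0 arrays for both genes, by 1.12-fold for BIP1 and 1.20-fold for BIP2 on average, and neither was called. Genotypes did not overlap for 80.3% of all tested genes. BIP3 (AT1G09080), the BiP gene that is induced by ER stress, did not pass the signal filter. Its intensity was 17.3 and 16.4 in sahy9-1, not well above background, against 44.0 and 48.1 in Col-0. It was at least 2.89-fold lower in sahy9-1, where the bound sets the Col-0 mean against the lowest signal well above background on each sahy9-1 array. In the fit without the filter its adjusted p was 0.0190.

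HSP90 gave the narrowest range of the larger classes: 0 of 7 genes were lower in sahy9-1, 3 were higher and 4 were not called, with a median of 0.056. Over all tested genes 24.0% were called lower and 25.4% higher. At an unadjusted p 1 HSP90 gene, HSP90.7, was lower in limma. The cytosolic HSP90.1 (AT5G52640) is the heat-induced gene of this class. It was at -0.22 and 0.083 in sahy9-1, against 0.35 and 0.19 in Col-0, a difference of -0.33 with an interval of -0.67 to 0.0053 (adjusted p = 0.0902). The constitutive HSP90.2 (AT5G56030), HSP90.3 (AT5G56010) and HSP90.4 (AT5G56000) form a cluster on chromosome 5 in which HSP90.4 and HSP90.3 are neighbours and HSP90.2 lies 2 genes further on. These genes are nearly identical in sequence, so their probes may share signal, which was not tested. HSP90.2 was at 3.25 and 3.27 in sahy9-1, against 2.86 and 3.0 in Col-0, 1.26-fold higher (adjusted p = 0.0251), and its call held only when Col-0 replicate 2 was the array left out. HSP90.3 had a difference of 0.056 (interval -0.15 to 0.26) and HSP90.4 of 0.0062 (interval -0.18 to 0.19), with overlapping arrays for both.

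The HSP90 genes of plastid and mitochondrion were both higher in sahy9-1. HSP90.5 (AT2G04030) of the plastid, which takes part in protein import into the chloroplast, was at 3.49 and 3.58 in sahy9-1, against 2.86 and 3.07 in Col-0. It was 1.48-fold higher (adjusted p = 0.0115), and its 5 probes gave differences between 0.57 and 0.73. Its call was lost without sahy9-1 replicate 2 (adjusted p = 0.0693) and without the signal filter (adjusted p = 0.0517). HSP90.6 (AT3G07770) of the mitochondrion was at 1.55 and 1.63 in sahy9-1, against 0.88 and 1.05 in Col-0, and was 1.54-fold higher (adjusted p = 0.0069). HSP90.7 (AT4G24190) of the ER, which folds cell surface receptors, was at 3.80 and 3.83 in sahy9-1 and at 3.99 and 4.05 in Col-0. Its difference of -0.20 had an interval of -0.37 to -0.032 and was not called (adjusted p = 0.0570).

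**Figure D3:**
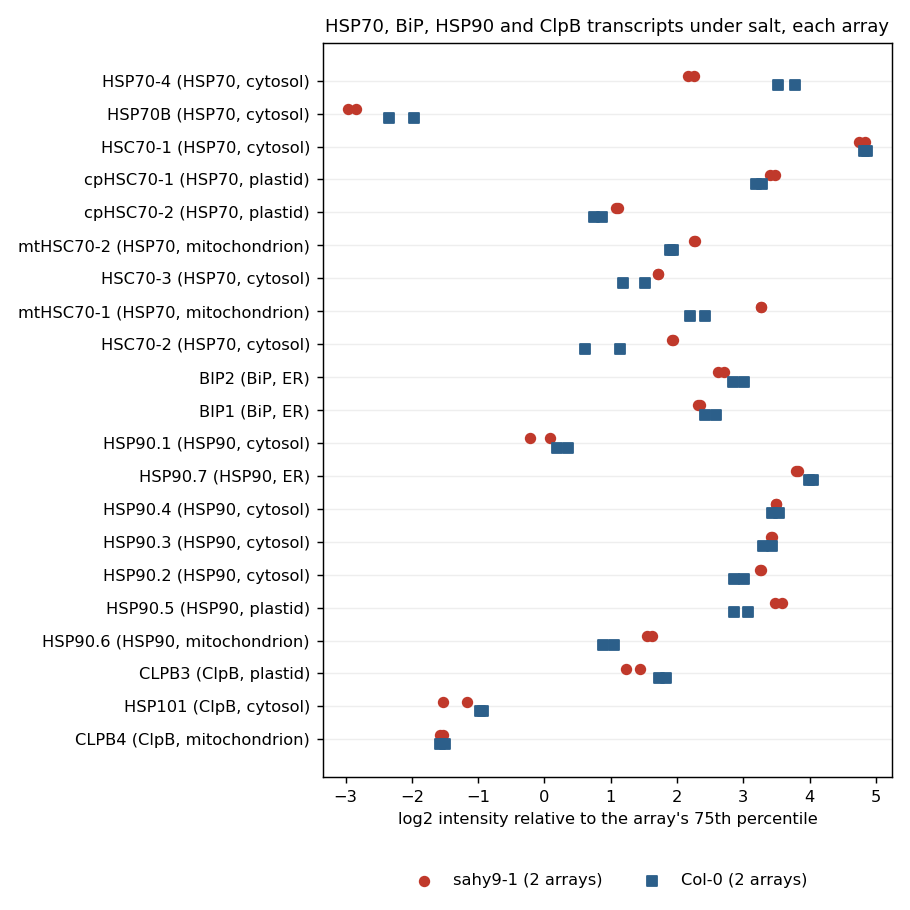
Level of the HSP70, BiP, HSP90 and ClpB transcripts (y axis, with class and compartment in brackets; BIP3 left out because it is not well above background in sahy9-1) on each array, as log2 intensity relative to the array's 75th percentile (x axis), with sahy9-1 as circles and Col-0 as squares. HSP70-4 shows the widest gap, with circles at 2.17 and 2.25 and squares at 3.78 and 3.53, and the markers overlap for HSC70-1, HSP90.3, HSP90.4 and CLPB4.

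ClpB proteins are ring-shaped ATPases that work with HSP70 and small heat shock proteins on aggregates. HSP101 (AT1G74310), the cytosolic form needed for acquired heat tolerance, was at -1.52 and -1.17 in sahy9-1, against -0.92 and -0.97 in Col-0. Its difference of -0.40 was not called (interval -0.75 to -0.049, adjusted p = 0.0629). CLPB3 (AT5G15450) of the plastid was at 1.44 and 1.23 in sahy9-1, against 1.83 and 1.74 in Col-0, and was 1.37-fold lower (adjusted p = 0.0214). Its call was lost without sahy9-1 replicate 2 (adjusted p = 0.103) and without Col-0 replicate 1 (adjusted p = 0.0779). CLPB4 (AT2G25140) of the mitochondrion was at -1.57 and -1.53 in sahy9-1 and at -1.50 and -1.57 in Col-0, with overlapping arrays and an interval of -0.19 to 0.16.

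Arranged by compartment, the same values gave opposite counts in the cytosol and the mitochondrion. Of the 19 cytosolic genes 8 were lower in sahy9-1 and 2 were higher, with a median difference of -0.40. Of the 6 mitochondrial genes 0 were lower, also at an unadjusted p in limma, and 4 were higher, with a median of 0.70. Over all tested genes 24.0% were called lower and 25.4% higher. HSP26.5, called lower with a difference of -1.75, enters none of these counts. Its organelle was treated as not settled, and the lower count of that organelle would change with it. The mitochondrial genes called higher were HSP23.6, mtHSC70-1, mtHSC70-2 and HSP90.6. HSP23.6 passed the signal filter through sahy9-1 alone and differed by 0.09 with normexp (adjusted p = 0.908), where the call for mtHSC70-2 was lost as well (adjusted p = 0.0590). In the plastid 2 of 5 were lower (HSP21 and CLPB3) and 2 were higher (cpHSC70-2 and HSP90.5), with a median of 0.20, while their mean was -0.65, with HSP21 at -3.86. In the ER 1 of 5 was lower (HSP22.0), 0 were higher and 1 was not tested, with a median of -0.26, and the differences of all 5 genes were below 0. BIP3 enters with its measured difference, although it was not well above background in sahy9-1. These medians describe the genes listed, and the difference between compartments was not tested.

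Within a compartment the counts differed by class, and this difference was not tested. The counts stand beside 24.0% lower and 25.4% higher calls over all tested genes. Among the small heat shock proteins 6 of 9 in the cytosol were lower and 0 were higher, and among the cytosolic HSP90 genes 0 of 4 were lower and 1 was higher. The 5 cytosolic HSP70 genes covered both directions, with 2 lower, 1 higher and a median of -0.043. In the plastid the small heat shock protein HSP21 differed by -3.86, beside 0.20 and 0.28 for both HSP70 genes, 0.57 for HSP90.5 and -0.45 for CLPB3. In the mitochondrion the range over all 4 classes was -0.016 to 1.18.

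**Figure D4:**
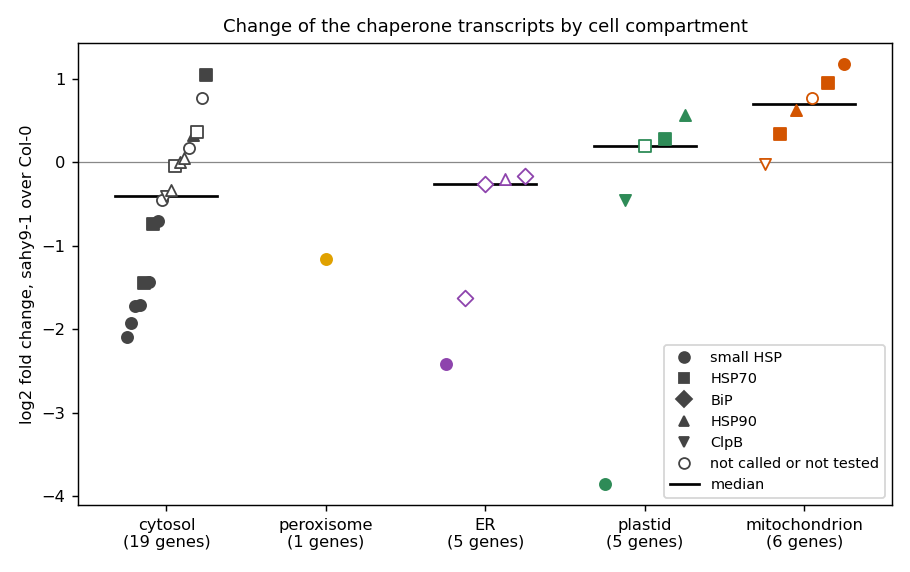
Log2 fold change of sahy9-1 over Col-0 (y axis) for the chaperone genes of each compartment (x axis), with symbols for class and black lines for medians; HSP26.5 is left out and BIP3 stands at its measured difference. The cytosolic genes run between -2.10 and 1.05 around a median of -0.40, and the 6 mitochondrial genes lie between -0.016 and 1.18.

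Genes of the heat shock factor family were examined next. Heat shock factors are transcription factors that bind heat shock elements, with class A members as activators and most class B members as repressors. Of 21 listed genes 20 were matched on the array and 18 were tested, of which 7 (38.9%) were lower in sahy9-1 and 2 (11.1%) were higher, beside 24.0% and 25.4% of all tested genes. Their median was -0.19 over the 20. HSFC1 (AT3G24520), the single class C member, was at -1.48 and -1.83 in sahy9-1, against 0.56 and 0.49 in Col-0, 4.53-fold lower (adjusted p = 0.0019). HSFA6A (AT5G43840), a factor known from salt and drought responses, was at -0.92 and -2.12 in sahy9-1, against 1.03 and 0.088 in Col-0. The arrays of each genotype were wide apart, and the 4.23-fold lower level (adjusted p = 0.0283) lost its call without sahy9-1 replicate 2 (2.80-fold, adjusted p = 0.0772) and without Col-0 replicate 1 (adjusted p = 0.100). Its value without sahy9-1 replicate 1 was 6.40-fold.

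HSFB2A (AT5G62020) was at -0.13 and -0.097 in sahy9-1, against 1.05 and 1.00 in Col-0, and was 2.20-fold lower (adjusted p = 0.0017). HSFA8 (AT1G67970) was at 0.23 and 0.033 in sahy9-1, against -0.90 and -0.80 in Col-0, and was 1.98-fold higher (adjusted p = 0.0037). HSFA1E and HSFA4A were named after their values were seen. HSFA1E (AT3G02990) differed by -0.93 (adjusted p = 0.0028), a call that was lost with normexp (adjusted p = 0.0633). HSFA4A (AT4G18880), the other factor called higher, differed by 0.80 (adjusted p = 0.0125), and its call was lost without sahy9-1 replicate 2 (adjusted p = 0.0591) and with normexp (adjusted p = 0.0507). HSFA2 (AT2G26150), a main activator of small heat shock protein genes during prolonged stress, was not called. It was at -3.00 and -2.70 in sahy9-1 and at -2.86 and -2.51 in Col-0, with overlapping arrays and a difference of -0.17 ± 0.17 (SE, adjusted p = 0.439).

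The co-chaperones, which deliver clients to HSP70 and HSP90 or set the pace of their cycle, were called in 6 of 14 cases, 3 lower and 3 higher in sahy9-1. Each direction makes up 21.4% of the list, no more than the 24.0% lower and 25.4% higher calls among all tested genes. ROF2 (AT5G48570), a heat-induced immunophilin that binds HSP90, was at -1.14 and -1.02 in sahy9-1, against 0.0054 and -0.26 in Col-0 (1.93-fold lower, adjusted p = 0.0052). HOP3 (AT4G12400), which links HSP70 to HSP90, was at -1.10 and -0.98 in sahy9-1, against -0.020 and -0.40 in Col-0 (1.78-fold lower, adjusted p = 0.0113). BAG6 (AT2G46240), whose BAG domain can bind HSP70, differed by -0.54 (adjusted p = 0.0080). The HSP40 gene J2 (AT5G22060), whose protein stimulates the HSP70 ATPase, differed by 0.45 in the other direction (adjusted p = 0.0075). The call of ROF2 held whichever array was left out. That of HOP3 was lost without sahy9-1 replicate 1 (adjusted p = 0.0583) and with normexp (adjusted p = 0.0556), that of BAG6 without sahy9-1 replicate 2 (adjusted p = 0.0565), and that of J2 when either sahy9-1 array was left out (adjusted p = 0.0577 and 0.0550).

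Chaperonins are barrel-shaped complexes that enclose single proteins while they fold. Those listed moved in 1 direction: 7 of 7 listed genes of plastid and mitochondrion were higher in sahy9-1, by differences of 0.30 to 0.86. That is 100% of the list, beside 25.4% of all tested genes called higher. The list was chosen with earlier results of these data known, and chaperonin genes outside it were not examined. HSP60-2 (AT2G33210) of the mitochondrion was at 2.53 and 2.47 in sahy9-1, against 1.53 and 1.75 in Col-0 (1.82-fold higher, adjusted p = 0.0045). HSP60 (AT3G23990), its relative, was 1.67-fold higher (adjusted p = 0.0045), and the co-chaperonin gene CPN10 (AT1G14980) 1.51-fold higher (adjusted p = 0.0067). CPN60A1 (AT2G28000) of the plastid was 1.45-fold higher (adjusted p = 0.0191). Without the signal filter 3 of the 7 were called, the mitochondrial HSP60, HSP60-2 and CPN10. No plastid chaperonin was called in that fit (CPN60A1 adjusted p = 0.0716, limma). When either sahy9-1 array was left out, 3 of the 7 remained past the threshold.

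The ER list of 17 folding genes and unfolded protein response regulators held 4 genes called lower, 1 called higher and 12 not called. Both shares of the 17 were under those over all tested genes, 24.0% lower and 25.4% higher. ERDJ3A (AT3G08970), an ER partner of BiP, was at -3.51 and -3.49 in sahy9-1, against -2.89 and -2.98 in Col-0 (1.48-fold lower, adjusted p = 0.0052). The related ERDJ3B (AT3G62600) was 1.29-fold lower (adjusted p = 0.0137) and its partner SDF2 (AT2G25110) 1.20-fold lower (adjusted p = 0.0268). CRT3 (AT1G08450), a calreticulin that folds receptor kinases, was 1.34-fold higher (adjusted p = 0.0191). BZIP60 (AT1G42990), the transcription factor activated by unconventional splicing during ER stress, was at 2.30 and 2.56 in sahy9-1 and at 2.08 and 2.42 in Col-0, and was not called (difference 0.18, adjusted p = 0.370). When either sahy9-1 array was left out, 1 call in this list remained, that of ERDJ3A. With normexp the call of ERDJ3A was lost (adjusted p = 0.0814) and the 1 call was that of CRT3 (adjusted p = 0.0397).

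**Figure D5:**
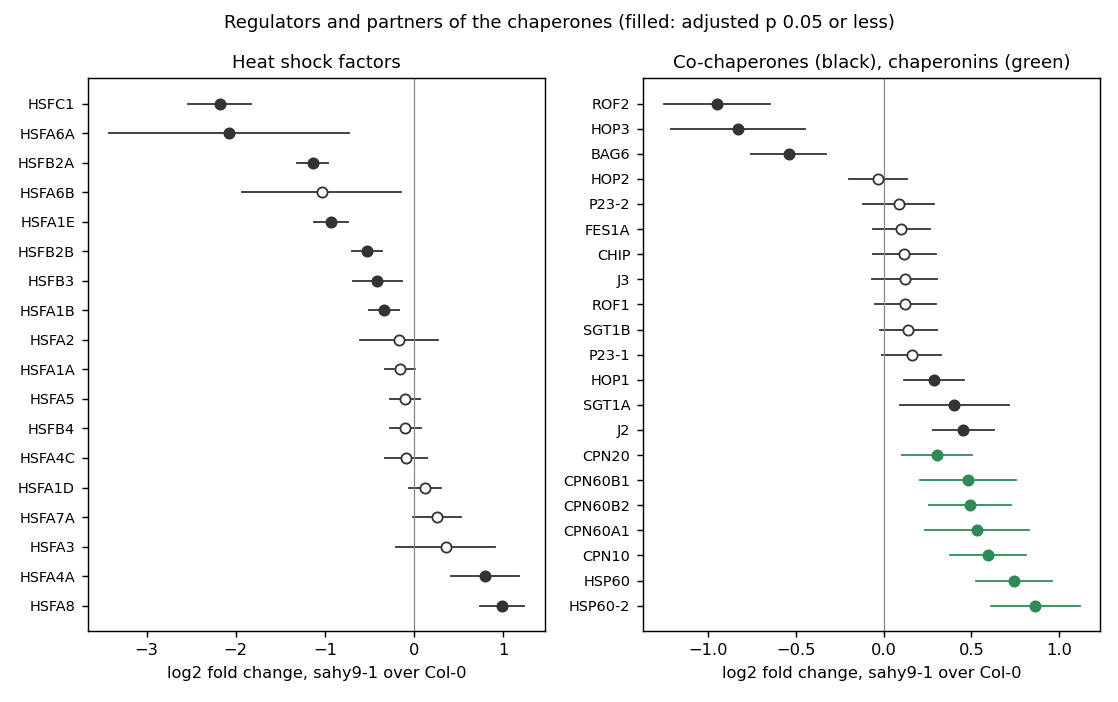
Log2 fold change of sahy9-1 over Col-0 (x axes) with the 95% interval of the limma fit for the 18 tested heat shock factors (left) and for the 14 co-chaperones and 7 chaperonins (right, black and green). Filled points have an adjusted p of 0.05 or less; all 7 chaperonins lie right of 0 and 7 heat shock factors left of 0 as filled points.

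All 4 arrays were on 1 slide and in 1 scan, so the position of an array on the slide and its genotype cannot be told apart. The samples are described as coming from 2 independent experiments. The limma p-values rest on the spread between the 2 arrays of each genotype, moderated toward the spread over all tested genes.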

How the data were processed

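Intensities of single arrays were made by the authors with Agilent Feature Extraction 10.7.1.1, which removes a local background; the authors deposited these background-subtracted signals. The deposited log2 table holds the same values scaled to each array's 75th percentile and set to the Col-0 mean (r = 1 with the scanner values); the methods name MAS 5.0, which these values do not follow. Control and outlier spots were dropped, replicate spots were averaged per probe, and log2 intensity minus the array's 75th percentile was used. Each gene was represented by its brightest probe on average. Of 35137 transcripts on the array 26309 were matched to loci through the RefSeq table of TAIR10.1. That match grouped probes into genes, and the table also gave names and gene order. Each transcript without a match was counted as its own gene, also in the shares over all tested genes. Genes whose intensity reached 100 in both replicates of sahy9-1, of Col-0 or of both (21732) were fitted with limma 3.58.1 (lmFit and eBayes, R 4.3.3) without a block, with Benjamini-Hochberg adjustment over all of them. Fold changes are sahy9-1 over Col-0. The procedure was tested on simulated data. Figures were drawn with matplotlib 3.10.9.

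The members and the lists of heat shock factors, co-chaperones, chaperonins, ER folding genes and tissue markers were chosen with earlier results of these data known. All members are described. From each list the text names up to 4 genes with the largest change among those called, and HSFA2, HSFC1, HOP3 and BZIP60 whatever their result. No reads or depth exist for arrays, and the number of arrays limits the precision. Alternatives were the background correction, the scaling, the signal filter, the choice of probe, the variance model, the methods' t-test, the deposited table, the replicate number as a block and leaving out each array. The alternative background correction, normexp, started from the median spot signals and added an offset of 50, so more than the background step changed. With it the median difference over all tested genes was -0.10.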

Additional observations from a re-analysis of the deposited data

How the results depend on the processing

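Of the 21 calls among the members, all 21 were kept with quantile normalization, the array median as the scale, the deposited log2 table, the mean over the probes of a gene, an intensity trend in eBayes and the replicate block, and without Col-0 replicate 2, and no called member changed sign under any of these. A signal filter on all 4 arrays kept 20 and lost HSP23.6. Normexp kept 12, dropping the signal filter kept 12, and leaving out sahy9-1 replicate 1, sahy9-1 replicate 2 or Col-0 replicate 1 kept 16, 13 and 18. The cause was not tested, except that dropping the filter raises the number of genes tested to 34261. Over all genes tested, 5217 lower and 5519 higher calls became 1431 and 1324 with normexp, 3059 and 3520 without the filter, and 2228 to 4859 and 2583 to 5226 without 1 array. Dim probes (HSP23.6, BIP3) and 2 arrays per genotype limit these results.

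With normexp 8 members were called lower and 4 higher, with 3 calls among heat shock factors, 1 in the ER list and 3 among co-chaperones, and medians of 0.14 for HSP90, 0.26 for the plastid and 0.52 for the mitochondrion. It turned the uncalled HSP17.6A-CI to -0.24 and HSC70-1 to 0.036. Without the filter 3 members were called higher, with 1 call in the ER list, 3 among co-chaperones and 3 among chaperonins. With the mean over probes APUM23 was at -1.92, the HSP90 median was 0.14 and HSC70-1 was 0.083, and single other probes of HSC70-1 gave 0.24, 0.079, 0.14, 0.027, 0.18 and 0.081.

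Leaving out 1 array gave 12 to 13 members lower, 3 to 11 higher and 4 to 8 lower by at least 3-fold, 6 to 11 calls among heat shock factors, 1 to 4 in the ER list, 2 to 6 among co-chaperones and 3 to 7 among chaperonins. Medians ran between -1.72 and -1.22 for small heat shock proteins, 0.20 to 0.34 for HSP70, -0.42 to -0.22 for ClpB, -0.017 to 0.13 for HSP90 and 0.46 to 0.89 for the mitochondrion. The uncalled genes HSC70-1 (-0.093 to 0.0064), CLPB4 (-0.050 to 0.018), HSP90.3 (-0.017 to 0.13) and HSP90.4 (-0.048 to 0.061) crossed 0 in these fits.

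The methods' t-test kept 15 of 21 calls without adjustment and 0 after Benjamini-Hochberg adjustment, where it called 37 genes lower and 56 higher in all; 0 members were then called in either direction, 0 by at least 3-fold, and 0 in each of the 4 lists, and APUM23 at -2.95 had an adjusted p of 0.0586. At 2-fold in place of 3-fold 2 members were called higher, and with no fold threshold 13 lower and 8 higher. Means in place of medians were -1.09 for small heat shock proteins, 0.11 for HSP70, -0.68 for BiP, 0.15 for HSP90, -0.29 for ClpB, -0.93 for the ER and -0.65 for the plastid, which lay on the other side of 0 from its median.

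The replicate numbers were not used as pairs, because the labels tie them to no shared batch and there are 2 pairs. Same-numbered arrays deviated from their genotype means with a correlation of 0.438 across genes. With the replicate block 5857 genes were called lower and 6049 higher, and the 21 member calls were kept. It added 6 members, for 16 lower and 11 higher: HSP17.8 (adjusted p = 0.0335), BIP2 (0.0317) and HSP101 (0.0400) lower, and HSP23.5 (0.0064), HSP15.4 (0.0059) and HSC70-3 (0.0383) higher.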
